A study of Mus musculus with 52 samples.

Results

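The genes followed here take up, cleave, bind, esterify and reduce vitamin A and its carotenoid precursors in the absorptive epithelium of the gut. They are Isx, Bco1, Scarb1, Rbp2, Lrat, Retsat and Stra6l, 7 of the 24116 genes in the table, and each was found once by its gene symbol. Dietary carotenoids enter the enterocyte through the scavenger receptor that Scarb1 encodes, and the oxygenase encoded by Bco1 cleaves beta-carotene to retinal. Retinal and retinol are carried by the cellular retinol-binding protein of Rbp2, and the acyltransferase of Lrat esterifies retinol for storage and export. Isx encodes an intestine-specific homeobox repressor that is known to be induced by retinoic acid and to repress Bco1 and Scarb1, a feedback loop on vitamin A uptake. Retsat encodes retinol saturase, which reduces a double bond of retinol, and Stra6l encodes a membrane receptor for retinol-binding protein related to Stra6.

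The organoids were grown from single cells of the intestine of wild type C57BL/6 mice aged 8 weeks, as cultures from 2 male littermates; the segment of the intestine is not given in the labels. Each culture received DMSO as vehicle, all-trans retinoic acid at 10 µM (atRA), which activates the retinoic acid receptors, or 5 µM of an antagonist of the retinoid X receptors (RXRi), the partners with which retinoic acid receptors bind DNA. These were given on day 0 and once more on day 3, at the time when Wnt3a-conditioned medium, the ROCK inhibitor and the GSK3 inhibitor were also withdrawn from every group. RNA pooled from 3 wells was sequenced on days 1, 3, 4 and 5 for each treatment and on day 0 for DMSO alone, for 13 groups of 2 cultures, each with duplicate RNA purifications (52 libraries).

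The 51 libraries used had 12895667 to 26206028 reads each (median 19686970), with 14387 to 15800 genes above 0. The second duplicate of culture 1 from day 1 of DMSO had just 12443 reads and was left out, so this culture rests on 1 library. The fibroblast markers Col3a1, Dcn and Lum were at 0 in all 51 libraries and the other 3 of that list stayed below 1 RPKM, as did all 3 endothelial markers. The 5 immune markers summed to 5.0 to 52.3 RPKM per culture, nearly all of it Lyz2 (up to 49.4), lowest under RXRi on day 3 (5.0 to 5.67) and highest with atRA on day 5 (32.8 to 52.3), and their part in the results was not tested. The epithelial markers (Epcam, Cdh1, Krt8, Vil1 and Krt20) summed to 1841 to 7892 RPKM per culture. The sum was highest under RXRi on day 4 (7486 to 7892, against 2991 to 3218 in DMSO). On day 5 it was 6861 to 6910 under RXRi, against 2242 to 2731 in DMSO. The highest single value was that of Krt8 (6904). In bulk RNA, fewer cells of a type and less RNA per cell cannot be told apart. Values are RPKM, in which reads are divided by the length of the gene and the depth of the library, so levels can be compared between genes. Means are over 2 cultures with their SD (n = 2), a log2 fold change carries its standard error after ±, and changes were called at an adjusted p under 0.05. The log2 fold changes are on the log2(RPKM + 1) scale, which understates the change of genes near or below 1 RPKM. These are Bco1, Lrat, Isx where it is off, and Stra6l under RXRi from day 3 on. A ratio of mean RPKM, or the means themselves, is therefore given beside most of their changes. All 7 members passed the filter of 1 RPKM in 4 libraries, Lrat solely through its 4 libraries of day 0.

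The members lie on 6 chromosomes (RefSeq's GRCm38.p6, which has the coordinates of mm10). Isx spans chr8:74873174-74893506 and Bco1 chr8:117095851-117133720, both on the plus strand. Rbp2 spans chr9:98490537-98509771, Retsat chr6:72598602-72607488 and Stra6l chr4:45824293-45887010 on the plus strand, and Scarb1 chr5:125277087-125341094 and Lrat chr3:82892582-82903974 on the minus strand. Exons of the unclassified transcript Gm45053 overlap those of Retsat on the opposite strand in the GENCODE annotation. No source used here says whether counting used strand, and reads of that pair cannot be told apart. No exon of another gene overlapped those of the other 6 members.

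The sequences just upstream of 4 members are shown because these genes had the largest log2(RPKM + 1) responses to the ligand or the antagonist (Isx, Rbp2 and Retsat, although Lrat and Stra6l had larger ratios of mean RPKM than the last 2) or are the described target of the repressor with a promoter entry (Bco1). Each is the 250 bases before the RefSeq start of GRCm38.p6, 5′ to 3′ on the strand of the gene, and capitals mark AGGTCA on either strand (TGACCT on the opposite one), the half-site that retinoid X receptors and their partners recognise. The windows are chr8:74872924-74873173 for Isx, chr8:117095615-117095864 for Bco1, chr9:98490287-98490536 for Rbp2 and chr6:72598352-72598601 for Retsat; that of Bco1 ends at the start given by the promoter table, which lies inside the gene span above.
Isx: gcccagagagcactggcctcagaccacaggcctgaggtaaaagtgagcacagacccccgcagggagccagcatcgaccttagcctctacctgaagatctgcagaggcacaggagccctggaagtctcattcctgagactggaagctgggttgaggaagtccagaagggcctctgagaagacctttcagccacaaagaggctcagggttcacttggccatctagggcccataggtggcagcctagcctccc
Bco1: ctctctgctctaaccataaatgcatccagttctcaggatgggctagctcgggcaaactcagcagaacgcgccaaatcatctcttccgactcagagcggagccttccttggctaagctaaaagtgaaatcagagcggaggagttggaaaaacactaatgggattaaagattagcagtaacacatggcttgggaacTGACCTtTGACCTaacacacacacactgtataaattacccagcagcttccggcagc
Rbp2: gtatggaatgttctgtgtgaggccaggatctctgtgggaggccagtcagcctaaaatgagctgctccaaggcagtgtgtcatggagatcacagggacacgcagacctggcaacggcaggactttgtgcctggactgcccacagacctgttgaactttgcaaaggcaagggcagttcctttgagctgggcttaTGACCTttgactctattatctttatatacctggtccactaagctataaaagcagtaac
Retsat: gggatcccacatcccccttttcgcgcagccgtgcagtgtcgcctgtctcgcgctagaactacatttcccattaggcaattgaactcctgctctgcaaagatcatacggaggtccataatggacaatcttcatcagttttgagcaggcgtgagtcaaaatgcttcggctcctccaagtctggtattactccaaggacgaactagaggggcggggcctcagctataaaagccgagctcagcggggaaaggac

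Of the 6 members with an upstream window, Bco1 held AGGTCA 2 times and Rbp2 1 time, each on the strand opposite to the gene. In Bco1 the matches lie 56 to 51 and 49 to 44 bases before the start and make up a direct repeat with 1 base between the copies. In Rbp2 the match lies 58 to 53 bases before the start. Among 32851 windows of this length, 14.0% held AGGTCA on either strand, and 11 (0.0335%) held the direct repeat with 1 base between. The same repeat with 2 or with 5 bases between was found in 3 windows each (0.00913%), none of them of a member. TATAAA, the core of a TATA box, was found on the gene's own strand 28 to 23 bases before the start of Bco1, 15 to 10 before that of Rbp2 and 30 to 25 before that of Retsat, and 12.4% of all windows held it on either strand. The homeobox core TAATTA was in 4.84% of all windows and in no window of a member. The motifs were chosen with the sequences in view, exact letters were matched on both strands, and a match describes the sequence without showing that a factor binds there.

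The mean RNA level of Isx ranged from below 1 RPKM in 6 groups to 231.9 and above in 3. On day 0 the libraries held 0.26 and 0.494 RPKM in culture 1 and 0.672 and 0.19 in culture 2. On day 1 the DMSO libraries held 0.377 in culture 1 and 0.753 and 0.566 in culture 2, and those with atRA 157 and 151 in culture 1 and 146 and 141 in culture 2. A single day of atRA thus separated the groups by a gap that no library used bridged, while the vehicle libraries used stayed at their starting level. The shallow DMSO library of that day, left out here, held 5 reads of Isx (224 RPKM). The atRA mean of 148.5 ± 7.5 RPKM was 287 times that of DMSO (0.518 ± 0.2), a log2 fold change of 6.63 ± 0.14 (adjusted p = 3.38e-15).

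In vehicle organoids Isx came on between days 1 and 3. The day 3 DMSO libraries held 101 and 108 RPKM in culture 1 and 89.1 and 96.7 in culture 2, a rise of 6.04 ± 0.14 (log2, adjusted p = 1.57e-14) over the interval that ended on the day of the medium switch. On day 4 they held 118 and 121 in culture 1 and 147 and 143 in culture 2, and on day 5 they held 93.5 and 99.3 in culture 1 and 138 and 138 in culture 2. The step from day 3 to day 4 (0.41 ± 0.14, adjusted p = 0.0176) was lost without culture 2 of either day (0.33 and 0.27, adjusted p = 0.132 and 0.173) and with a pseudocount of 0.1 (adjusted p = 0.111). The levels on day 4 (132 ± 18.1 RPKM) and day 5 (117 ± 29.4 RPKM) did not differ beyond their spread (-0.19 ± 0.14, adjusted p = 0.467), although without culture 2 of day 5 the fall was -0.44 (adjusted p = 0.0371).

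With atRA present from the start, Isx held 224 to 244 RPKM on day 3, 239 to 252 on day 4 and 254 to 267 on day 5. These libraries lay above every vehicle library of the same day. The ratio to DMSO was 2.35 on day 3, 1.86 on day 4 and 2.24 on day 5 (log2 fold changes of 1.23 ± 0.14, 0.89 ± 0.14 and 1.18 ± 0.14, adjusted p = 1.13e-05, 0.000492 and 4.89e-05). The effect of atRA on day 5 minus that on day 1 was -5.45 ± 0.20 (log2, adjusted p = 1.27e-11), and minus that on day 3 it was -0.05 ± 0.20 (adjusted p = 0.942).

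Under the RXR antagonist Isx stayed below 1 RPKM in all 16 libraries. They held 0.5 to 0.765 RPKM on day 1, 0.2 to 0.365 on day 3, 0.22 to 0.66 on day 4 and 0.234 to 0.705 on day 5, or 7 to 28 reads each. On day 1 the difference from DMSO, where Isx was below 1 RPKM too, did not pass the test (0.06 ± 0.14, adjusted p = 0.79). From day 3 the groups were far apart, and vehicle held 381 times the antagonist level on day 3, 270 times on day 4 and 274 times on day 5. The log2 fold changes against DMSO were -6.30 ± 0.14, -6.48 ± 0.14 and -6.36 ± 0.14 (adjusted p = 1.93e-15, 4.56e-16 and 4.49e-16), and this effect on day 5 minus that on day 1 was -6.42 ± 0.20 (adjusted p = 1.72e-12).

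**Figure D1:**
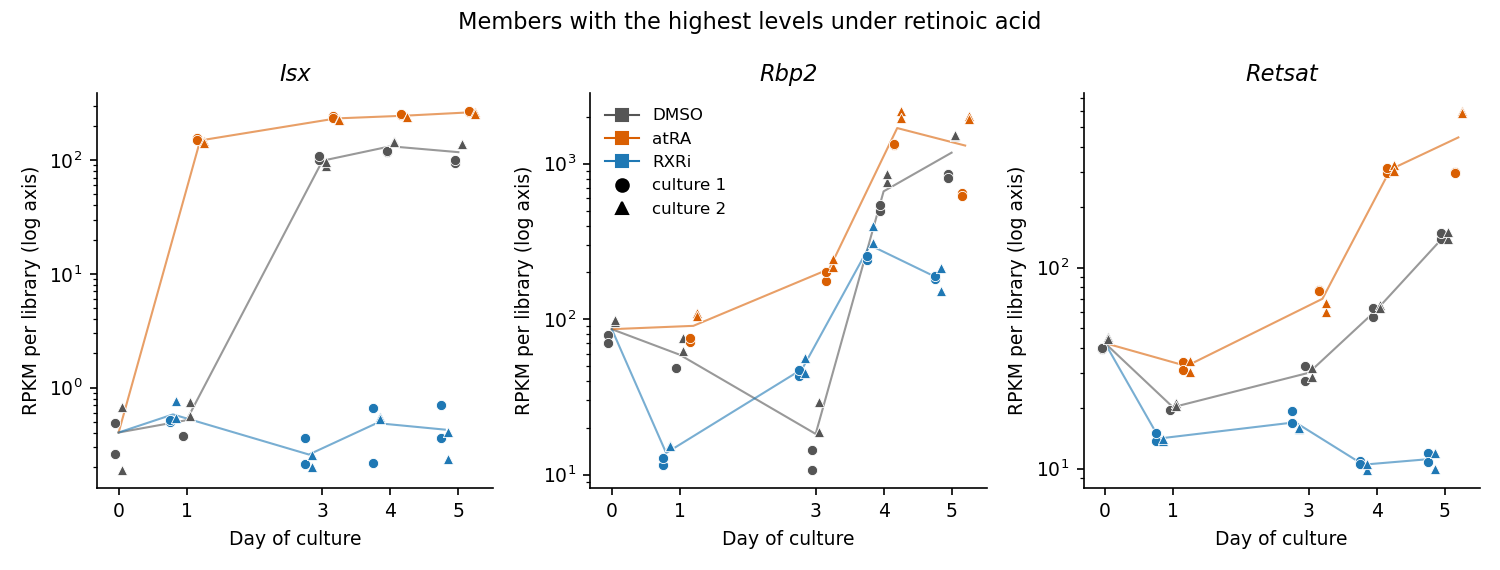
RPKM of Isx, Rbp2 and Retsat in each library (log axis) against day of culture; circles are culture 1, triangles culture 2, colours the treatments, and lines join group means from the shared day 0 group. Among the libraries used, Isx reaches 141 to 157 RPKM on day 1 with atRA alone, all DMSO libraries lie at 89.1 to 147 from day 3, and RXRi libraries stay below 1.

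Bco1, the carotenoid oxygenase and a described target of Isx, was low in every group, at 0.277 to 2.92 RPKM (12 to 137 reads per library). In DMSO it stood at 2.23 ± 0.0438 RPKM on day 0, 2.04 ± 0.52 on day 1, 1.05 ± 0.069 on day 3, 1.88 ± 0.232 on day 4 and 1.01 ± 0.155 on day 5. It fell between days 1 and 3 (-0.55 ± 0.12, adjusted p = 0.00421), rose to day 4 (0.48 ± 0.12, adjusted p = 0.00209) and fell to day 5 (-0.52 ± 0.12, adjusted p = 0.0212). The first of these falls was lost without culture 2 of day 1 (adjusted p = 0.0954), and the last without culture 2 of day 4 or of day 5 (adjusted p = 0.193 and 0.0524) and with single libraries and a duplicate correlation (adjusted p = 0.0704).

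With atRA, Bco1 held 1.94 ± 0.209 RPKM on day 1, when Isx was already at 148.5, and the vehicle held 2.04 ± 0.52 with Isx at 0.518. The libraries of the groups overlapped and the difference did not pass the test (-0.03 ± 0.12, adjusted p = 1). On day 3 it held 1.36 ± 0.123 against 1.05 ± 0.069 RPKM (0.20 ± 0.12, adjusted p = 0.412). On day 4 it was lower than in DMSO, with 1.05 ± 0.11 RPKM against 1.88 ± 0.232 (-0.48 ± 0.12, adjusted p = 0.0138), a call lost without culture 2 of DMSO or of atRA (adjusted p = 0.0998 and 0.136) or with the duplicate correlation (0.0542). The step from day 3 to day 4 passed in DMSO and not in atRA organoids (-0.19, adjusted p = 0.166), and the difference between these steps was not tested. On day 5 all atRA libraries (0.677 to 0.874 RPKM) lay just below all DMSO libraries (0.884 to 1.2), and the difference of -0.19 ± 0.12 did not pass (adjusted p = 0.425).

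Under the antagonist Bco1 was lower than in DMSO on all 4 days. On day 1 the libraries held 0.596 and 0.277 RPKM in culture 1 and 0.608 and 0.787 in culture 2, against 1.67 in culture 1 and 2.92 and 1.89 in culture 2 of DMSO. All 4 lay below every vehicle library, and Isx was below 1 RPKM in both groups on that day. The vehicle mean was 3.59 times the antagonist mean (-0.94 ± 0.12, adjusted p = 1.72e-05), then 2.22 times on day 3 (adjusted p = 0.00337), 2.45 times on day 4 (adjusted p = 6.04e-05) and 1.59 times on day 5 (adjusted p = 0.0314). The call of day 5 was lost without culture 1 of DMSO (adjusted p = 0.181) or either culture of RXRi (adjusted p = 0.112 and 0.0746), with the duplicate correlation (0.138) and with a pseudocount of 4 (0.0653). The effect on day 5 minus that on day 1 was 0.64 ± 0.17 (adjusted p = 0.00485). The antagonist means were 0.567 RPKM on day 1 and 0.637 on day 5, while those of DMSO were 2.04 and 1.01.

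Scarb1, the carotenoid and cholesterol receptor and the other described target of Isx, was at 35.9 to 40 RPKM on day 0 and was measured at 7.31 to 38.7 thereafter. In DMSO its mean was 37.05 ± 1.7 RPKM on day 1, 25.02 ± 2.02 on day 3, 17.5 ± 3.16 on day 4 and 19.6 ± 7.36 on day 5. Single steps did not pass the test (-0.55 ± 0.23 from day 1 to 3 with adjusted p = 0.148, and -0.50 ± 0.23 from day 3 to 4 with adjusted p = 0.0803), and the change from day 0 to day 5 was -0.96 ± 0.23 (adjusted p = 0.0016). The steps to day 3 and to day 4 passed with the duplicate correlation (adjusted p = 0.0131 and 0.00631). The cultures parted on day 5, with 24.9 and 24.7 RPKM in culture 1 and 14.7 and 14.1 in culture 2.

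With atRA, Scarb1 was lower than in DMSO. On day 5 the libraries held 12.7 and 12.9 RPKM in culture 1 and 7.31 and 8.1 in culture 2, below all 4 of DMSO. The difference on that day was -0.87 ± 0.23 (adjusted p = 0.0392), and it was lost without culture 1 of DMSO (-0.49, adjusted p = 0.51) or culture 2 of atRA (-0.54, adjusted p = 0.224) and with no filter (adjusted p = 0.0653). On days 1, 3 and 4 the atRA libraries also lay below all DMSO libraries, with differences of -0.25 ± 0.23, -0.71 ± 0.23 and -0.62 ± 0.23 (adjusted p = 0.9, 0.0762 and 0.0927). Days 3 and 4 passed with the duplicate correlation (adjusted p = 0.00101 and 0.00396). Over the mean of the 4 days the difference was -0.61 ± 0.12 (adjusted p = 0.000953).

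Under the antagonist the mean of Scarb1 lay above that of DMSO from day 3 on. It was 30.8 ± 0.725 RPKM on day 3, 25.1 ± 0.744 on day 4 and 25.5 ± 1.71 on day 5, against 25.02, 17.5 and 19.6 in DMSO, and none of these days passed the test on its own (adjusted p = 0.328, 0.0727 and 0.137). Day 4 passed with median-of-ratios scaling (0.653, adjusted p = 0.0216) and with the duplicate correlation (0.505, adjusted p = 0.00519). Day 5 passed with the duplicate correlation (0.409, adjusted p = 0.0214). The mean over 4 days was higher by 0.27 ± 0.12 (adjusted p = 0.0447), close to the threshold and lost in most fits that leave out a culture (0.18 without culture 2 of day 5 DMSO, adjusted p = 0.139). Between the treatments themselves the difference was clear, with atRA against RXRi at -1.0 ± 0.23 on day 3, -1.13 ± 0.23 on day 4 and -1.28 ± 0.23 on day 5 (adjusted p = 0.002, 0.000472 and 0.000131). Over the 13 group means Scarb1 and Isx correlated with r = -0.764 and Bco1 and Isx with r = 0.214; these points share cultures and days and are a description.

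Stra6l, the retinol-binding protein receptor, was abundant on day 0 alone. The day 0 libraries held 43 and 42.8 RPKM in culture 1 and 47.9 and 44.5 in culture 2, and on day 1 the DMSO libraries held 4.24 in culture 1 and 4.64 and 4.81 in culture 2. This fall of -3.06 ± 0.20 (adjusted p = 2.91e-09), 9.94-fold in mean RPKM, took place within 1 day, and the DMSO means then stayed between 2.47 and 4.48 RPKM. With atRA the means were 5.42, 4.73, 3.30 and 4.10 RPKM on days 1, 3, 4 and 5. No single day passed the test, and the mean over the 4 days was higher by 0.36 ± 0.10 (adjusted p = 0.0152). The cultures differed on day 5 in DMSO, with 1.49 and 1.96 RPKM in culture 1 and 4.22 and 3.91 in culture 2, and without culture 2 the atRA effect of that day became 0.90 (adjusted p = 0.00222).

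Under the antagonist Stra6l went on falling where the vehicle levelled off. The RXRi libraries held 2.42 to 3.76 RPKM on day 1, 0.274 to 0.353 on day 3, 0.0406 to 0.122 on day 4 and 0.0357 to 0.228 on day 5 (2 to 31 reads from day 3 on). From day 3 all lay far below every DMSO library. The vehicle mean was 9.8 times the antagonist mean on day 3, 30.7 times on day 4 and 22.7 times on day 5 (log2 fold changes of -1.66 ± 0.20, -1.67 ± 0.20 and -1.72 ± 0.20, adjusted p = 4.95e-06, 1.97e-06 and 1.02e-06). The day 5 effect minus that of day 1 was -1.25 ± 0.28 (adjusted p = 0.00203).

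Rbp2, the retinol and retinal carrier of enterocytes, reached the highest level of the 7. The day 0 libraries held 79.1 and 70.2 RPKM in culture 1 and 96.1 and 99.3 in culture 2. In DMSO it fell to 10.7 and 14.3 in culture 1 and 18.8 and 29.2 in culture 2 on day 3 (-1.70 ± 0.44 from day 1, adjusted p = 0.0151, lost without culture 2 of day 1 or culture 1 of day 3, adjusted p = 0.135 and 0.224). One day later it stood at 495 and 541 in culture 1 and 760 and 862 in culture 2. This rise of 5.16 ± 0.44 (adjusted p = 1.48e-07), 36.4-fold in mean RPKM, was seen in all libraries of day 4, when the summed level of 20 enterocyte markers also went from 246 to 266 RPKM per culture to 4380 to 4936.

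With atRA Rbp2 was above the vehicle level on day 3. On day 3 the libraries held 177 and 203 RPKM in culture 1 and 218 and 244 in culture 2, 11.5 times the DMSO mean (3.54 ± 0.44, adjusted p = 3.73e-05). On day 4 they held 1318 and 1330 in culture 1 and 2170 and 1967 in culture 2, all above DMSO, at 2.55 times its mean. That difference of 1.35 ± 0.44 had adjusted p = 0.0574, and adjusted p = 0.00361 with the culture as a replicate block. On day 5 culture 1 held 649 and 617 against 865 and 815 in DMSO, and culture 2 held 2023 and 1945 against 1499 and 1532, so the cultures went opposite ways and the groups overlapped (-0.01 ± 0.44, adjusted p = 0.995). The effect on day 5 minus that on day 3 was -3.54 ± 0.62 (adjusted p = 0.0042).

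The antagonist changed Rbp2 in both directions along the course. On day 1 it held 11.5 to 15.5 RPKM against 48.7 to 75.9 in DMSO (-2.01 ± 0.44, adjusted p = 0.00344). On day 3 it was higher, at 42.8 to 56.1 against 10.7 to 29.2 (1.42 ± 0.44, adjusted p = 0.0152), on day 4 lower, at 239 to 395 against 495 to 862 (-1.14 ± 0.44, adjusted p = 0.0342), and on day 5 lower, at 152 to 212 against 815 to 1532 (-2.62 ± 0.44, adjusted p = 6.01e-05). No library of the groups overlapped on any day. The call of day 3 was lost without culture 1 of DMSO (0.98, adjusted p = 0.156) or either culture of RXRi (adjusted p = 0.0516 and 0.0759), and that of day 4 without culture 2 of DMSO or culture 1 of RXRi (adjusted p = 0.224 and 0.19), with median-of-ratios scaling (-0.99, adjusted p = 0.0717) and with no filter (0.0585). The effect of day 5 minus that of day 3 was -4.04 ± 0.62 (adjusted p = 0.000111).

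Lrat, the retinol acyltransferase, was low throughout and highest on day 0. Its libraries held 1.06 to 1.43 RPKM on day 0 (83 to 139 reads) and 0.245 to 0.343 in DMSO on day 1, 4.47-fold lower in mean RPKM. Since Lrat passed the filter through day 0 alone, comparisons with day 0 had to show it lower, and no test is given for them. In DMSO the mean was then 0.183 RPKM on day 3, 0.548 on day 4 and 0.651 on day 5, and the rise from day 3 to day 4 (0.38 ± 0.11, adjusted p = 0.00646) was lost without culture 2 of day 4 (adjusted p = 0.115). With atRA it held 0.0783 to 0.11 RPKM on day 1, below all DMSO libraries, with 7 to 11 reads each. The DMSO mean was 3.08 times that of atRA on day 1. On days 3, 4 and 5 it was 1.30, 2.23 and 1.71 times, and the libraries overlapped. Over the 4 days the mean with atRA was lower by -0.22 ± 0.05 (adjusted p = 0.00754). No single day passed the test (adjusted p = 0.0676 on day 4, and 0.0434 with the replicate block).

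Under the antagonist Lrat was all but absent. On day 1 the 4 libraries held 1 to 5 reads each, a difference of -0.32 ± 0.11 (adjusted p = 0.0432) that was lost without any one of the 4 cultures compared (adjusted p = 0.119 to 0.17), with scaling (0.0743) and with a pseudocount of 4 (0.0956). On day 3 they held 1 read in all against 16 to 31 reads in each DMSO library, which puts DMSO 80.7-fold higher with a counting interval (95%) of 14.5 to 3189; the difference of -0.24 ± 0.11 on the log2 scale did not pass (adjusted p = 0.0848), but did with a pseudocount of 0.1 (-1.45, adjusted p = 0.00225). On day 4 all 4 held 0 reads against 34 to 79 in DMSO, which was at least 22.3-fold higher, taking 3 reads per library as the floor (-0.62 ± 0.11, adjusted p = 9.63e-05). On day 5 they held 2 reads in all, with DMSO 144-fold higher (39.9 to 1189; -0.71 ± 0.11, adjusted p = 1.96e-05). The intervals cover the counting error of the RXRi reads only. The effect of day 5 minus that of day 3 was -0.47 ± 0.15 (adjusted p = 0.0264), a call lost in 7 of the 8 fits that leave out a culture. Minus that of day 1 it was -0.39 ± 0.15 (adjusted p = 0.0511, and 0.0328 with the replicate block).

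**Figure D2:**
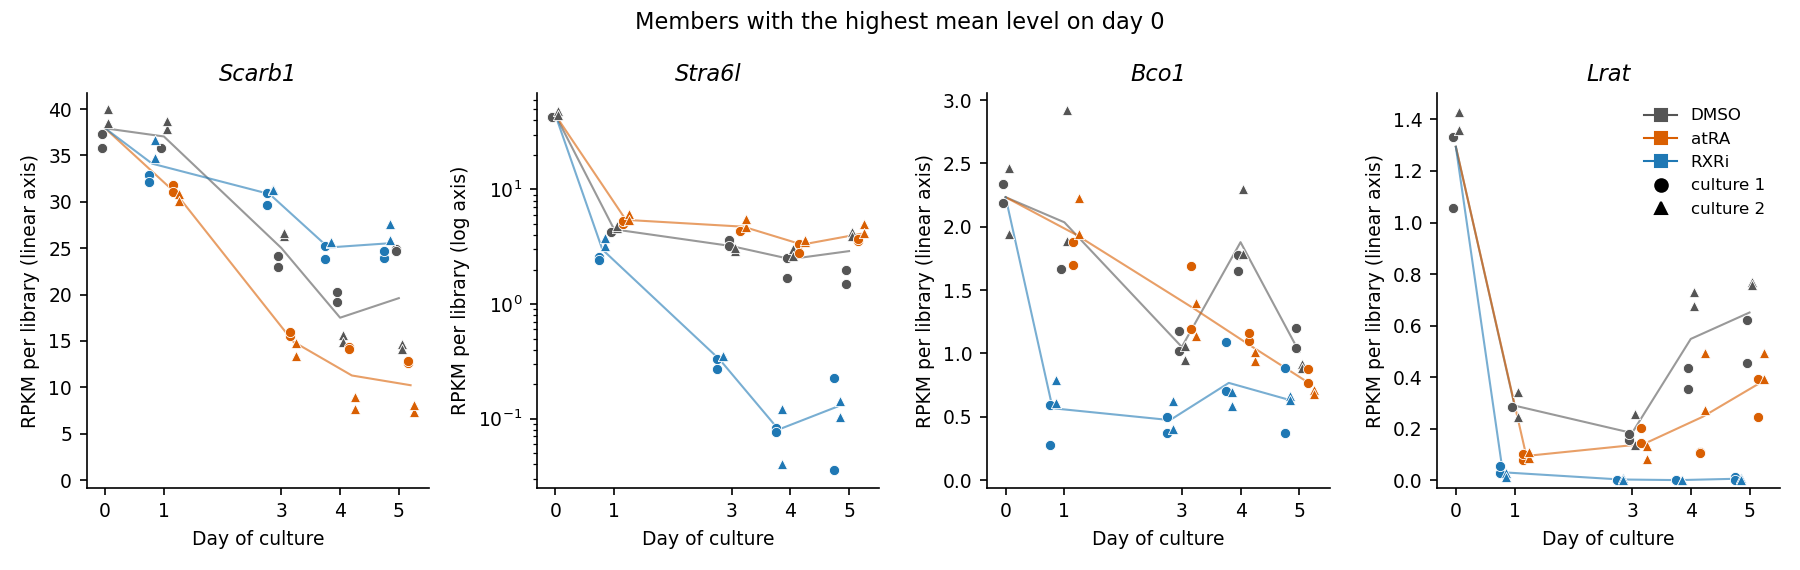
RPKM of Scarb1, Bco1 and Lrat (linear axis) and of Stra6l (log axis) in each library against day of culture; circles are culture 1, triangles culture 2, colours the treatments, and lines join group means. Each of these genes has its highest mean on day 0, and Scarb1 is the one that lies higher under RXRi (25.1 and 25.5 RPKM on days 4 and 5) than under atRA (11.3 and 10.2).

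Retsat, the retinol saturase, rose late in vehicle organoids. Its libraries held 39.5 to 45 RPKM on day 0 and 19.6 to 21.1 in DMSO on day 1, a fall of -1.02 ± 0.19 (adjusted p = 0.000235). DMSO organoids then held 27.3 to 32.4 on day 3, 56.7 to 64.9 on day 4 and 138 to 150 on day 5. The rises to day 4 (1.02 ± 0.19, adjusted p = 0.00029) and to day 5 (1.21 ± 0.19, adjusted p = 0.00186) both passed, and the libraries of successive days did not overlap.

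With atRA Retsat lay above all DMSO libraries on every day. It held 30.4 to 34.1 RPKM on day 1 (0.65 ± 0.19, adjusted p = 0.0841), 60.1 to 77 on day 3 (1.19 ± 0.19, adjusted p = 0.00047) and 294 to 324 on day 4 (2.30 ± 0.19, adjusted p = 9e-07). On day 5 culture 1 held 299 and 296 RPKM and culture 2 held 599 and 586. Both cultures were above DMSO, by 1.04 and 2.03 on the log2 scale, and the mean effect was 1.54 ± 0.19 (adjusted p = 9.64e-05). Without culture 1 of that group the day 5 effect exceeded that of day 1 by 1.38 (adjusted p = 2.17e-05), against 0.88 ± 0.27 with both (adjusted p = 0.178).

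Under the antagonist Retsat did not take part in the late rise. It held 13.7 to 15 RPKM on day 1, 15.7 to 19.4 on day 3, 9.84 to 10.9 on day 4 and 9.98 to 11.9 on day 5, below DMSO on each day. The vehicle mean was 1.43 times that of RXRi on day 1 (-0.49 ± 0.19, adjusted p = 0.0865), 1.76 times on day 3 (-0.79 ± 0.19, adjusted p = 0.00356), 5.91 times on day 4 (-2.45 ± 0.19, adjusted p = 9.6e-09) and 12.9 times on day 5 (-3.58 ± 0.19, adjusted p = 4.97e-11). The effect on day 5 minus that on day 1 was -3.09 ± 0.27 (adjusted p = 1.36e-07), and minus that on day 3 it was -2.80 ± 0.27 (adjusted p = 8.46e-07).

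**Figure D3:**
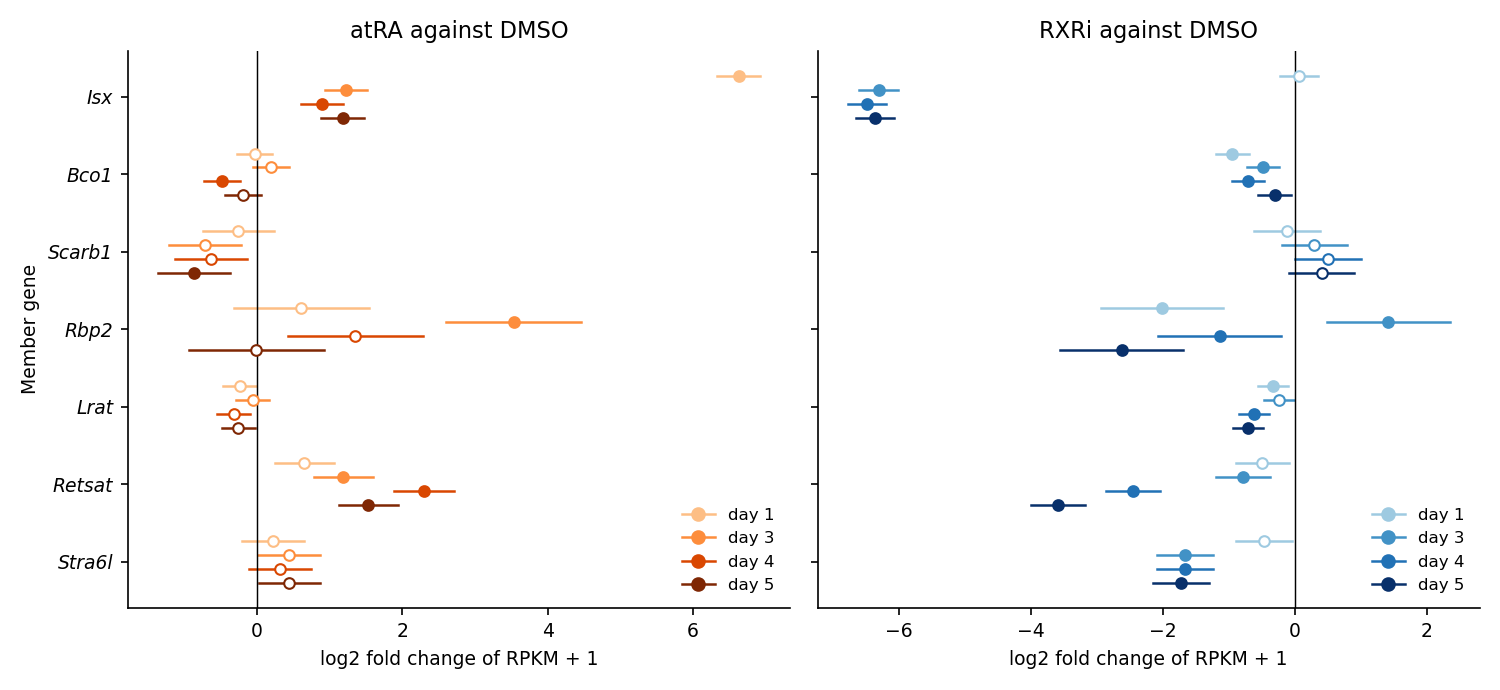
Log2 fold change (of RPKM + 1) of each member for atRA (left) and RXRi (right) against DMSO on days 1, 3, 4 and 5, with 95% intervals of the fit from 2 cultures per group; filled points passed the test and open ones did not. Isx stands at 6.63 with atRA on day 1 and between -6.30 and -6.48 with RXRi from day 3, and Rbp2 is above 0 with both treatments on day 3.

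Counted together against all 12443 genes tested, the 7 members moved as follows in vehicle organoids. From day 0 to day 1, 2 members fell (Stra6l and Retsat) and Lrat, which passed the filter through day 0 alone, was lower too, and of all genes 35.6% were lower and 25.6% higher. From day 1 to day 3, 1 rose (Isx) and 2 fell (Bco1 and Rbp2), against 6.19% and 6.49% of all genes. From day 3 to day 4, 5 rose (Isx, Bco1, Rbp2, Lrat and Retsat), against 20.5% higher and 34.3% lower over all genes, with a median change of 0.41 for the members and -0.10 for all. From day 4 to day 5, 1 rose (Retsat) and 1 fell (Bco1), against 2.11% and 1.33%. On day 5 against day 0, Isx, Rbp2 and Retsat were higher and Bco1, Scarb1 and Stra6l lower, as was Lrat with the same limit, against 18.7% and 51.1% of all genes. These backgrounds depend on the scaling. With median-of-ratios scaling the share of higher among called genes went from 37.4% to 52% for day 3 to day 4, from 61.2% to 83.3% for day 4 to day 5 and from 26.9% to 53.1% for day 5 against day 0, where the median gene shifted by 0.32.

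For atRA against DMSO, the called members were 1 of 7 on day 1 (Isx, higher), when 1.93% of all genes were higher and 1.53% lower, and 3 on day 3 (Isx, Rbp2 and Retsat, higher), against 4.32% and 4.36%. On day 4 Isx and Retsat were higher and Bco1 lower, against 3.58% and 7.35%, and on day 5 Isx and Retsat were higher and Scarb1 lower, against 2.14% and 2.89%. Over the mean of the 4 days, 4 were higher (Isx, Rbp2, Retsat and Stra6l) and 2 lower (Scarb1 and Lrat), against 7.98% and 15.0%. The median change was 0.36 for the members and -0.04 for all genes. The share of higher among called genes was 32.8% on day 4 and 34.8% over the mean, and 64.4% and 51% with median-of-ratios scaling.

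For RXRi against DMSO, 3 members were lower on day 1 (Bco1, Rbp2 and Lrat), against 9.93% of all genes lower and 10.5% higher. On day 3, 4 were lower (Isx, Bco1, Retsat and Stra6l) and Rbp2 higher, against 25.4% and 18.4%. On each of days 4 and 5, 6 were lower and Scarb1 was the exception, against 37.0% lower and 22.0% higher on day 4 and 35.1% and 28.7% on day 5. Over the mean of the 4 days 6 were lower and 1 higher, against 42.8% and 30.1%, so a large part of all genes moved too. The median change over the mean was -1.09 for the members and -0.07 for all genes. On day 4 the share of higher among called genes was 37.3%, and 49.7% with median-of-ratios scaling.

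Set directly against RXRi, atRA organoids had 5 members higher on day 1 (all but Scarb1 and Lrat), against 12.2% of all genes higher and 13.5% lower. On day 3 they had 5 higher and Scarb1 lower, against 25.1% and 22.2%. On days 4 and 5 again 5 were higher and Scarb1 lower, against 30.9% and 29.4% on day 4 and 37.1% and 29.7% on day 5. Bco1 was among the higher on days 1 and 3 and Lrat on days 4 and 5. The call of Stra6l on day 1 was lost without culture 1 of RXRi or either culture of atRA (adjusted p = 0.0513 to 0.168), and that of Lrat on day 4 without either culture of RXRi or culture 2 of atRA (adjusted p = 0.0726 to 0.319). Over the mean, 6 were higher and Scarb1 lower, against 40.8% and 34.3%. The atRA and RXRi comparisons with DMSO share their vehicle samples, whereas this one holds none.

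The change of a drug effect with time passed the test for Isx (atRA, day 5 minus day 1, against 0.659% of all genes lower in that difference) and Rbp2 (atRA, day 5 minus day 3, against 1.98%). For the antagonist, day 5 minus day 1 was lower for Isx, Retsat and Stra6l and higher for Bco1, against 23.6% and 17.8% of all genes, and day 5 minus day 3 was lower for Rbp2, Lrat and Retsat, against 16.0%. Within atRA organoids, day 1 against day 0 had Isx higher and Stra6l lower, besides Lrat (24.7% and 34.7% of all genes), day 3 against day 1 had Isx and Retsat higher and Scarb1 lower (8.17% and 10.0%), and day 4 against day 3 had Rbp2 and Retsat higher (17.9%). Within RXRi organoids, Bco1, Rbp2, Retsat and Stra6l, besides Lrat, were lower on day 1 than on day 0 (against 35.9%), Rbp2 was higher and Stra6l lower from day 1 to day 3 (8.47% and 12.9%), and Rbp2 was higher and Retsat lower from day 3 to day 4 (11.2% and 32.9%). Among the last, the rise of Rbp2 to day 3 was lost without culture 1 of day 1 or culture 2 of day 3 (adjusted p = 0.0829 and 0.0632), and the fall of Retsat to day 4 without culture 1 of day 3 or culture 2 of day 4 (adjusted p = 0.0889 and 0.0628) and with median-of-ratios scaling (-0.39, adjusted p = 0.177).

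The 13 group levels of each member formed different orders. For Isx, 5 of 12 neighbouring groups in the order lay apart in their ranges over cultures, with the main gap between 0.583 RPKM (RXRi, day 1) and 98.6 (DMSO, day 3). For Retsat 10 of 12 lay apart, from 10.4 RPKM (RXRi, day 4) to 445 (atRA, day 5), and for Rbp2 7 of 12, from 13.8 (RXRi, day 1) to 1696 (atRA, day 4). For Stra6l it was 6, for Lrat 5, for Bco1 4 and for Scarb1 3 of 12, so for the last 2 most neighbouring levels did not differ beyond their spread. The lowest mean lay in an RXRi group for 6 members and in atRA on day 5 for Scarb1 (10.2 RPKM). The orders in culture 1 alone and culture 2 alone had rank correlations of 0.901 (Isx, Bco1) to 0.989 (Rbp2, Retsat) over the 13 groups.

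The genes whose group means followed each member most closely were found by Pearson's r over the same 13 means. For Isx these were Vipr1 (a receptor of vasoactive intestinal peptide, r = 0.956), Clint1 (0.954) and B4galnt1 (0.944). For Rbp2 they were the sulfotransferase Sult1d1 (0.968), Ift20 (0.966) and the retinal dehydrogenase Aldh1a1 (0.956), and for Retsat Rab30 (0.984) and the respiratory chain subunit Cox6c (0.981). For Scarb1 they were Zfp503 (0.957), Homer2 (0.952) and Atp6v1b2 (0.948), for Lrat Pxylp1 (0.966), Cdip1 (0.961) and Pcnx (0.96), and for Stra6l Pogk (0.973), Zbtb39 (0.971) and Frmd4a (0.97). For Bco1 the likeness was lower, with the microRNA gene Mir7041 (0.885), Hes6 (0.867) and the elastase Cela1 (0.853). With Spearman's rho, Ift20 and Pxylp1 ranked 1 for Rbp2 and Lrat, and the genes named for Isx ranked 29, 111 and 139.

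Other genes of vitamin A metabolism were counted by list. Of the retinol and retinal oxidoreductases, 17 of 22 were tested, and with atRA 9 rose and 1 fell over the mean of the 4 days (median 0.18). The retinal reductase Dhrs3 rose by 1.84 ± 0.09 (adjusted p = 2.67e-10), Aldh1a7 by 1.12 ± 0.07 (adjusted p = 6.16e-09) and the alcohol dehydrogenase Adh4 by 1.36 ± 0.11 (adjusted p = 8.37e-08). With RXRi 3 of the 17 rose and 14 fell (median -0.70), among them these 3, at -2.60 ± 0.09, -1.28 ± 0.07 and -2.72 ± 0.11. Of the retinoid binding and transport genes 5 of 8 were tested, and 4 fell with atRA, led by the fatty acid and retinoic acid binding protein Fabp5 (-0.87 ± 0.06, adjusted p = 3.26e-08), with the transthyretin Ttr at -0.49 ± 0.09 (adjusted p = 0.000855). With RXRi 2 of the 5 rose, among them Fabp5 by 2.53 ± 0.06, and 3 fell.

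Of the 3 genes of retinoic acid clearance 1 was tested, Cyp26b1, which rose by 3.16 ± 0.17 with atRA (adjusted p = 8.26e-10) and stood at -0.33 ± 0.17 with RXRi (adjusted p = 0.0936). Of the 6 receptor genes (Rar and Rxr families) 4 were tested; with atRA limma called 0 of them over the mean (1 lower at an unadjusted p under 0.05), and with RXRi Rarg rose by 1.42 ± 0.12 (adjusted p = 6.11e-09) and Rxra, Rxrb and Rara fell. Of the lipid and carotenoid handling genes 15 of 17 were tested, with 9 rising and 1 falling under atRA (median 0.39) and 2 rising and 12 falling under RXRi (median -1.29). The lipoprotein assembly gene Mttp rose by 1.06 ± 0.08, and the sterol transporters Abcg8 by 1.06 ± 0.09 and Abcg5 by 1.25 ± 0.11 (adjusted p = 7e-08, 2.46e-07 and 4.25e-07). Of 10 intestinal transcription factors, 1 rose and 2 fell with atRA (median -0.05) and 1 rose and 7 fell with RXRi (median -0.85), led in atRA by Hes1 (-0.23 ± 0.04, adjusted p = 0.000796), Hnf4g (0.30 ± 0.09, adjusted p = 0.0213) and Klf4 (-0.36 ± 0.12, adjusted p = 0.0385). The median over all genes was -0.04 with atRA and -0.07 with RXRi. For these lists and those above, the shares of all genes were 7.98% higher and 15.0% lower with atRA. With RXRi they were 30.1% higher and 42.8% lower, so many genes outside the lists were called too.

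Markers of enterocytes, the cells in which most of the members act, moved with several of these results. The 20 markers summed to 1188 to 1356 RPKM per culture on day 0, and in DMSO to 267 to 350 on day 1, 246 to 266 on day 3, 4380 to 4936 on day 4 and 12160 to 15590 on day 5. Isx in DMSO rose from 0.518 to 98.6 RPKM between days 1 and 3, when this sum did not rise. Over that step 3 of the 20 markers rose and 5 fell, against 6.19% and 6.49% of all genes. Rbp2 and Retsat rose from day 3 to day 4, when 19 of the 20 markers rose (median 3.47), against 20.5% of all genes. With atRA the sum was 2711 to 3802 on day 1 and 8309 to 8660 on day 3, much of it Fabp1, without which it was 286 to 354 and 810 to 815, against 198 to 239 and 194 to 206 in DMSO. On day 4 it was 28910 to 29570, and 5709 to 6744 without Fabp1 against 2135 to 2414 in DMSO. On day 5 it was 23350 in one culture and 37250 in the other, and without Fabp1 5239 to 12550, which overlaps the 6319 to 7043 of DMSO.

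Of the 20 markers, 16 rose with atRA on day 3, 13 on day 4 and 16 over the mean, and on day 5 3 rose and 1 fell (median -0.11). The shares of all genes higher on day 3, on day 4 and over the mean were 4.32%, 3.58% and 7.98%. On day 5, 2.14% were higher and 2.89% lower. With RXRi the sum was 93.9 to 99.3 RPKM on day 1, 52.9 to 73.8 on day 3, 211 to 231 on day 4 and 90.9 to 120.1 on day 5, and 11, 13, 19 and 20 of the 20 fell on these days. Of all genes, 9.93%, 25.4%, 37.0% and 35.1% were lower on these days. On day 3 under RXRi 2 of the markers were at 0 in all 4 libraries. Rbp2 was then higher than in DMSO while 13 markers were lower. Of the other epithelial markers, all 5 of stem cells and all 5 of Paneth cells fell with RXRi over the mean of the 4 days, 5 of 6 of goblet cells fell and 1 rose, and with atRA all 6 goblet markers rose. Over that mean, 42.8% of all genes were lower and 30.1% higher with RXRi, and 7.98% were higher with atRA. The 5 enteroendocrine markers went both ways with RXRi. They summed to 133 to 160 RPKM per culture on day 3, against 80.7 to 96.2 in DMSO, and to 81.3 to 92.7 on day 5, against 220 to 224. The 3 tuft cell markers summed to at most 4.85 RPKM in any culture. The part of the marker genes in the changes of any member, Isx included, was not tested.

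**Figure D4:**
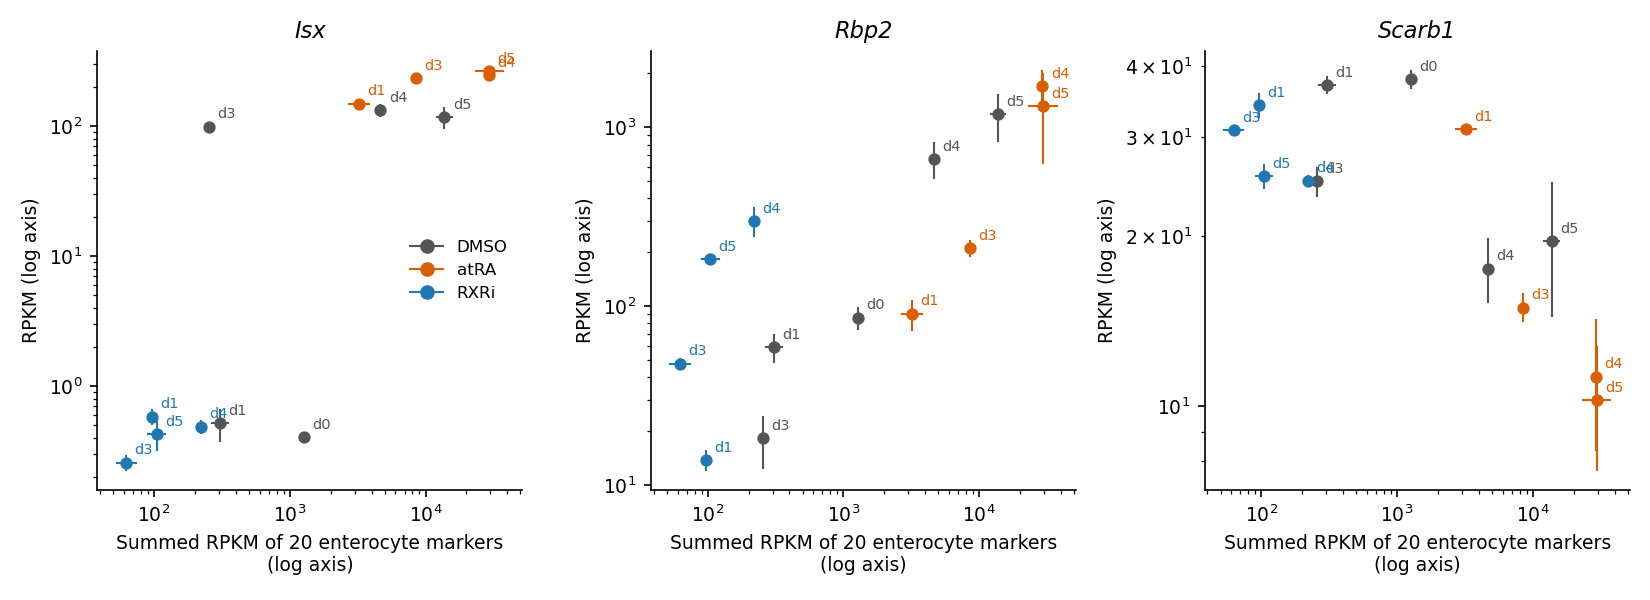
Mean RPKM of Isx, Rbp2 and Scarb1 against the summed RPKM of 20 enterocyte markers in the 13 groups (log axes); lines span the 2 cultures on each axis, d0 to d5 are the days and colours the treatments. Isx in DMSO on day 3 (98.6 RPKM) and on day 1 (0.518) sits at a like marker sum (246 to 266 and 267 to 350), and Rbp2 on day 3 lies higher under RXRi (47.7) than in DMSO (18.3) at a lower sum.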

How the data were processed

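Polyadenylated RNA of mouse intestinal organoids was sequenced, with libraries from an Illumina TruSeq mRNA kit per the labels' protocols. Per the submitters' processing notes, bcl2fastq 2.17, STAR 2.5.2b and mm10 were used; no source used here names the counting tool, its strand setting or the annotation. The authors deposited RPKM values for 24116 genes in 1 table, with no counts. The values of all 19708 genes above 0 in any library were whole multiples of what 1 read is worth (tolerance 0.01 read), from which reads per library were recovered; 3 reads are taken as the floor of detection.

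The prep number in the titles was taken as the culture and the last number as the duplicate RNA purification, which the labels do not spell out; libraries of 1 prep were closer to each other in 12 of 12 groups compared. The design text counts 4 treatments and the labels name 3. Duplicates were averaged as log2(RPKM + 1), which gave 26 culture means in 13 groups. The 12443 genes that reached 1 RPKM in 4 or more libraries were fitted (11673 were left out) in limma 3.58.1 (R 4.3.3), using its trend and robust settings, with 13 residual degrees of freedom and no block, for 32 comparisons. Tests are two-sided, with Benjamini-Hochberg adjustment over all genes within a comparison. The script was tested on simulated data.

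Cultures came from 2 littermates, so numbers could pair samples across groups. Over 78 pairs of groups, the deviations of same-numbered cultures had r between -0.317 and 0.759 (median 0.149), with 47 pairs above 0.1, and the replicate block is an alternative; blocked values stand beside results whose call they change.

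The 7 members and all gene lists were chosen with earlier results of these data known. Named besides the members are up to 3 genes per list with the smallest p for atRA over the 4 days, and the 3 genes most like each member over the 13 group means (predicted models left out; some genes that the rule names are not reported here); Rarg, Rxra, Rxrb and Rara were named after their values were seen. Sequences are from RefSeq's promoter table for GRCm38.p6, where 6 of 7 members had an entry. Alternatives were other pseudocounts (0.1 and 4), no filter, the shallow library kept, median-of-ratios scaling, the block, duplicate correlation, the other reading of the titles, limma without its options and omission of each culture. Figures were drawn with matplotlib 3.10.9.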

Additional observations from a re-analysis of the deposited data

Results flagged for a closer look

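Among 83 sets of 4 libraries of a member in a group, 2 had a library far from the other 3. For 4 independent values chance gives about 1 in 20. These sets are 2 cultures with duplicates, so that rate does not hold for them. For Isx under RXRi on day 1, 1 library held 0.765 RPKM and the others 0.5 to 0.544. For Lrat under RXRi on day 3, 1 library held 0.0095 RPKM, which is 1 read, and the others 0.

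The effect of a treatment differed between days for 6 members, by the test of the difference itself. For atRA, the day 5 effect minus the day 1 effect was -5.45 for Isx (adjusted p = 1.27e-11), and minus the day 3 effect it was -3.54 for Rbp2 (adjusted p = 0.0042). For RXRi, day 5 minus day 1 gave -6.42 for Isx, 0.64 for Bco1, -3.09 for Retsat and -1.25 for Stra6l (adjusted p = 1.72e-12, 0.00485, 1.36e-07 and 0.00203). Day 5 minus day 3 gave -4.04 for Rbp2, -0.47 for Lrat and -2.80 for Retsat (adjusted p = 0.000111, 0.0264 and 8.46e-07). The call of Lrat was lost in most fits that leave out a culture. Of all genes, 0.659% were lower in the first atRA difference and 1.98% in the second. For RXRi, 23.6% were lower and 17.8% higher for day 5 minus day 1, and 16.0% lower for day 5 minus day 3.

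The day 1 DMSO library that was left out held 5 reads of Isx among its 12443 reads, 224 RPKM, while the other libraries of that group held 0.377 to 0.753 RPKM. Its 5161 genes above 0 compare with 14387 or more in the other libraries.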

How the results depend on the processing

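Of the 224 fold changes of members, 119 were called in the main setting, and none of these 119 reversed its direction under the 9 alternatives to the fit. Reversals were not counted among the fold changes not called. One of those, Isx for RXRi on day 1, turned from positive to -1.77 with the shallow library kept. The calls counted here include those of Lrat against day 0, where the filter meant that Lrat had to be lower. Scaling, no filter, the pseudocounts and limma without its options each altered 1 to 9 of 224 calls. With a pseudocount of 0.1, 5 members rather than 2 were called from day 3 to day 4 under RXRi. The replicate block altered 5 calls, all gained, and raised the members called for atRA on day 4 from 3 to 5; beside the calls named above it added Rbp2 from day 1 to day 3 and Stra6l from day 3 to day 4 in atRA (adjusted p = 0.00387 and 0.042), and it changed no other call.

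Keeping the shallow library lost 29 calls and gained 4. Gained were Isx for DMSO day 0 to 1 (1.96, adjusted p = 0.0166) and for RXRi on day 1 (-1.77, adjusted p = 0.0489). The others were Retsat for DMSO day 1 to 3 (adjusted p = 0.0365) and Lrat for the RXRi effect on day 5 minus day 1 (adjusted p = 0.0392). The members called were then 2 for DMSO day 3 to 4, 0 for DMSO day 4 to 5, 1, 1 and 0 for atRA on days 3, 4 and 5, 3 for RXRi on day 3, 3 for atRA against RXRi on day 1, 0 for the atRA effect on day 5 minus day 1, and 1 each for atRA day 1 to 3 and RXRi day 3 to 4. Over all genes, the called number went from 2854 to 1134 for the atRA mean, from 431, 1080, 1361 and 626 to 178, 378, 263 and 153 for atRA on days 1, 3, 4 and 5, from 5457, 7339 and 7937 to 2397, 4296 and 5003 for RXRi on days 3, 4 and 5, from 6830, 428 and 8686 to 3143, 105 and 5207 for DMSO day 3 to 4, day 4 to 5 and day 0 to 5, and from 3208, 5894, 7506 and 8309 to 1250, 3070, 4654 and 5327 for atRA against RXRi on the 4 days. The cause was not tested.

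Taking the last number of the titles as the culture, which puts libraries of both preps into each mean, gained 62 calls. The members called were 5, 6 and 5 for DMSO day 0 to 1, 1 to 3 and 4 to 5, 4, 5, 7 and 5 for atRA on days 1, 3, 4 and 5, 6 for RXRi on day 1, 3 and 4 for the atRA effect on day 5 minus days 1 and 3, 5, 5, 5 and 6 for the successive steps in atRA, and 5, 6 and 1 for RXRi day 1 to 3, 3 to 4 and 4 to 5. Over all genes it gave 5990 and 5896 for DMSO day 1 to 3 (1577 in the main setting) and 4 to 5 (428), 3223, 5193, 7131, 5528 and 7301 for atRA on the 4 days and their mean, 7002 and 8922 for RXRi on days 1 (2537) and 3, and 7452 and 9078 for atRA against RXRi on days 1 and 3. Single libraries with an estimated duplicate correlation of 0.636 gave 5 and 1 members for DMSO day 1 to 3 and 4 to 5, 2 and 5 for atRA on days 1 and 4, 5 for RXRi on day 1, 2 for the atRA effect on day 5 minus day 1 and 4 for atRA day 3 to 4, and 914, 2197 and 1021 genes for DMSO day 4 to 5 and atRA on days 4 and 5.

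Leaving out 1 culture in turn, with the lone culture assumed to vary like the other groups, the members called ranged from 1 to 3 for DMSO day 1 to 3, 3 to 5 for day 3 to 4, 1 to 2 for day 4 to 5, 1 to 2 for the atRA effect on day 5 minus day 1 and minus day 3, 0 to 1 for atRA day 4 to 5, and 1 to 2 for RXRi day 1 to 3 and 3 to 4. Counted per member, comparison and culture left out, 55 results lost a call, 14 gained one and 1191 stayed the same. Among those gained was Scarb1 for atRA on day 4, at -0.98 without culture 1 of atRA. At this depth 3 reads are 0.0214 to 0.0435 RPKM for Lrat, so its RXRi levels from day 3 on lie below the limit of detection. On day 1 the RXRi libraries held 1 to 5 reads each, around that limit.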
